A study of Homo sapiens with 18 samples.

Results

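The genes described here were 10 classical target and feedback genes of the Wnt/β-catenin pathway: AXIN2, LGR5, NKD1, TCF7, LEF1, DKK1, RNF43, ZNRF3, SP5 and CCND1. They were taken as a list of names, out of 19720 named genes with a probe on the array, of which 15852 had a probe that could be tested. A member was read through every probe that carried its symbol or its RefSeq identifier. All 10 members passed the filter on dim probes. LGR5 and LEF1 passed it through the Huh7 groups alone, and NKD1 through the DSF groups alone, so that passing the filter already required a difference for these 3 genes.

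The cells were Huh1 and Huh7, established human lines of hepatocellular carcinoma (HCC), each sorted by flow cytometry for the surface protein EpCAM, a marker of tumor-initiating HCC cells. Disulfiram (DSF), an inhibitor of aldehyde dehydrogenase used in alcohol dependence, was given at 0.1 µM, 5-fluorouracil (5-FU), a drug that blocks thymidylate synthesis, at 1 µM, both for 48 hours, and control cells made the third group of each line. The methods describe DSF as given with copper chloride and do not say what control cells received, so that DSF and copper cannot be told apart. Each of the 6 groups held 3 arrays, 18 in all, from experiments described as independent.

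Wnt ligands bind Frizzled and LRP receptors, which blocks the complex of AXIN, APC and GSK3 that marks β-catenin for destruction. β-catenin then enters the nucleus and turns on genes through the TCF/LEF factors, and many of these genes encode brakes on the pathway itself, so that their RNA is widely used as a readout of its activity. In the liver the pathway sets the gene program of hepatocytes around the central vein, and activating mutations of β-catenin are among the common lesions of HCC.

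Levels are given as the log2 of the probe's signal minus the log2 of the 75th percentile of the array, so that 0 stands for that percentile. Levels of different genes come from different probes and were not compared. A probe was well above background on an array where the scanner software marked it so. Changes are differences of group means from limma with their standard errors (SE), and a change was called where the p adjusted over all 29894 tested probes was below 0.05 and all 3 arrays of a compared group had the probe well above background. These p-values measure the spread between the 3 arrays of a group, and a change in bulk RNA cannot tell fewer cells of a type from less RNA per cell.

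The arrays had 59.9% to 71.1% of probes well above background, no saturated spot, and correlations of 0.989 to 0.997 between arrays of one group. Replicate 1 of Huh1 5-FU read apart from its group for some genes, such as KREMEN1 (-3.16 against -4.36 and -4.11) and RHBG (-2.31 against -3.70 and -3.62). Without it 14718 probes were called for 5-FU in Huh1, beside 12356 without replicate 2 and 12323 without replicate 3. The labelled cell type was borne out by its markers: all 10 hepatocyte and liver cancer markers were well above background on all 18 arrays. Of the markers of other cells, 3 of 4 leukocyte genes, 2 of 4 endothelial genes and 1 of 6 fibroblast genes were so on all 18 arrays, while the endothelial receptor KDR was on no array. EPCAM, the sort marker, fell by 0.66 ± 0.17 after DSF in Huh1 (limma adjusted p = 0.00633). In Huh7 it fell by 0.50 ± 0.17 (limma adjusted p = 0.0294), and all DSF arrays were below all controls of their line. The call in Huh7 was lost with slide as a fixed term (-0.47, limma adjusted p = 0.223), and that in Huh1 under spike-in scaling (-0.52, limma adjusted p = 0.0831). The part of this shift in the changes below was not tested.

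DSF changed members in both lines, with falls called in Huh1 alone. In Huh1, 8 members could be measured and 6 changed: NKD1 and DKK1 rose, and TCF7, RNF43, ZNRF3 and SP5 fell. In Huh7 all 10 could be measured, and 5 rose while 0 fell: AXIN2, LGR5, NKD1, ZNRF3 and SP5. NKD1 counts as measured here through its DSF arrays alone, so that its call in either line followed largely from the filter. Over all probes measured in the same way, 48% were called after DSF in Huh1 (25.7% higher and 22.2% lower) and 48.7% in Huh7 (28.5% higher and 20.2% lower). The share of members called was thus 75% in Huh1 and 50% in Huh7, NKD1 included. The median change of the measured members was -0.27 in Huh1 and 0.43 in Huh7, beside 0.01 and 0.09 over all probes. When arrays were scaled to the spike-in RNAs, 1 of the 5 rises in Huh7 was still called.

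5-FU changed few members in Huh1 and more in Huh7. In Huh1 it changed 1 of 7 measured members, AXIN2, which fell. In Huh7 it changed 6 of 9: LGR5, TCF7, DKK1, RNF43 and CCND1 rose, and LEF1 fell. Over all measured probes 50.2% were called in Huh1 (24.1% higher and 26.2% lower) and 60.6% in Huh7 (29% higher and 31.6% lower), so that the 66.7% of members called in Huh7 was near the background and the 14.3% in Huh1 was below it. The median change of the measured members was -0.11 in Huh1 and 0.22 in Huh7. These changes are relative to the 75th percentile of each array. Scaled to the spike-in RNAs instead, the median change of all probes with 5-FU was 0.795 in Huh1 and 0.936 in Huh7, and 6 of 7 members were called in Huh1, all of them higher. So were 22370 of the 29894 tested probes in Huh1.

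**Figure D1:**
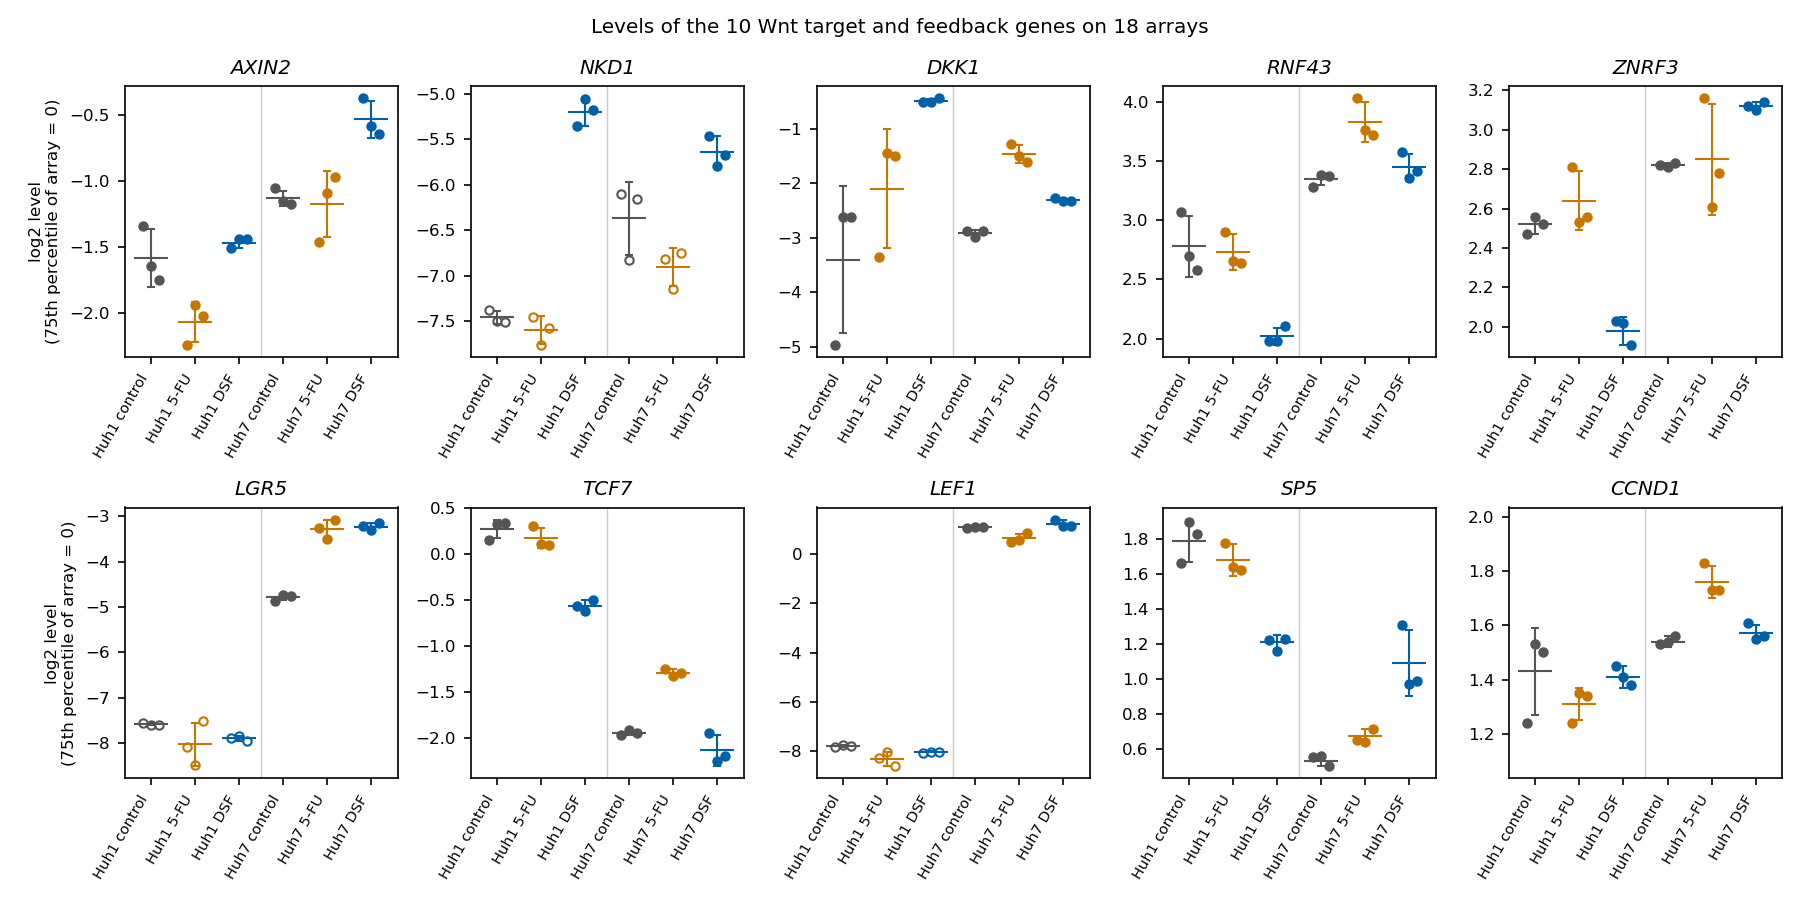
Log2 level (75th percentile of the array = 0) of each of the 10 genes on 18 arrays, each panel with its own axis. Points are arrays, bars the mean and SD of 3 arrays, and open points belong to groups where some array was not well above background. NKD1 is filled in the DSF groups alone, LEF1 and LGR5 in Huh7 alone, and SP5 lies lower with DSF in Huh1 and higher with DSF in Huh7.

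Of the negative feedback genes, AXIN2, which encodes a scaffold of the β-catenin destruction complex, was read by 2 probes. With the brighter probe, the level in Huh7 was -1.05, -1.15 and -1.17 in control, -1.46, -1.09 and -0.97 after 5-FU, and -0.37, -0.58 and -0.64 after DSF. In Huh1 it was -1.34, -1.64 and -1.75 in control, -2.24, -1.94 and -2.02 after 5-FU, and -1.51, -1.44 and -1.44 after DSF. The DSF arrays of Huh7 were thus above all others, and the 5-FU arrays of Huh1 below all others. DSF raised AXIN2 by 0.60 ± 0.13 in Huh7, 1.51-fold (limma adjusted p = 0.00189), and the change in Huh1 was 0.11 ± 0.13 with overlapping arrays (limma adjusted p = 0.53). 5-FU lowered it in Huh1, a change of -0.49 ± 0.13 (limma adjusted p = 0.00677), while the change in Huh7 was -0.05 ± 0.13.

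The second AXIN2 probe rose with DSF in Huh7 by 0.95 ± 0.17 (limma adjusted p = 0.000504), with levels of -2.26, -2.34 and -2.35 against -3.13, -3.46 and -3.21 in control. It did not pass for 5-FU in Huh1, at -0.31 ± 0.17 (limma adjusted p = 0.165). The fall of AXIN2 after 5-FU in Huh1 was moreover -0.28 (limma adjusted p = 0.106) without replicate 1 of both Huh1 groups, and 0.34 when arrays were scaled to the spike-in RNAs.

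NKD1 encodes a protein that binds Dishevelled and dampens the signal. It was well above background on all 6 DSF arrays and on none of the other 12. In Huh1 the measured levels were -7.38, -7.50 and -7.51 in control, -7.46, -7.76 and -7.58 after 5-FU, and -5.35, -5.06 and -5.18 after DSF. In Huh7 they were -6.10, -6.83 and -6.16 in control, -6.82, -7.15 and -6.75 after 5-FU, and -5.46, -5.79 and -5.67 after DSF. Since a signal below background gives no fold, the NKD1 change is given as an approximate bound. By it NKD1 was at least 2.5-fold higher with DSF than in control in Huh1 (limma adjusted p = 1.82e-07). In Huh7 it was at least 1.55-fold higher (limma adjusted p = 0.00324). NKD1 passed the filter through its DSF arrays alone, so that these p-values do not support its rise. The bound sets the mean of the bright arrays against a floor on the dim ones. That floor is the dimmest signal that still counted as well above background, or the dim probe itself where that is higher. It is not a strict limit, here or wherever a fold is given as at least some value below. A signal above the dimmest one could still be marked not well above background, as NKD1 was on Huh7 control array 1 (-6.10 beside -6.91). Against 5-FU the bounds were 3.99-fold in Huh1 and 2.41-fold in Huh7. The NKD1 change depended in both lines on how background was treated. With normexp correction of the raw spot signals it was -0.06 in Huh7. For Huh1 it was 0.42 in log2, still called but smaller than the 2.5-fold given as a bound.

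DKK1 encodes a secreted antagonist that removes LRP co-receptors from the cell surface. In Huh1 its level was -4.96, -2.62 and -2.61 in control, -3.36, -1.44 and -1.5 after 5-FU, and -0.51, -0.51 and -0.44 after DSF. In Huh7 it was -2.87, -2.98 and -2.88 in control, -1.27, -1.49 and -1.60 after 5-FU, and -2.27, -2.32 and -2.33 after DSF. Replicate 1 of the Huh1 control and 5-FU groups lay far below the other arrays of its group, and the DSF arrays of Huh1 lay above all others. In Huh7 both drugs set all 3 arrays above control, 5-FU more so.

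DSF raised DKK1 by 2.91 ± 0.54 in Huh1, 7.51-fold (limma adjusted p = 0.000558), and the change in Huh7 was 0.60 ± 0.54 (limma adjusted p = 0.384). 5-FU raised it by 1.45 ± 0.54 in Huh7, 2.74-fold (limma adjusted p = 0.034), and the change in Huh1 was 1.29 ± 0.54 (limma adjusted p = 0.0641). The SE comes from all 6 groups and so carries the 2 low arrays of Huh1. Without these, as an alternative added after the values were seen, all 4 changes were called: 2.13 ± 0.08 for DSF in Huh1 (limma adjusted p = 1.89e-09), 0.60 ± 0.07 for DSF in Huh7 (limma adjusted p = 3.03e-05), 1.14 ± 0.09 for 5-FU in Huh1 (limma adjusted p = 1.18e-06) and 1.45 ± 0.07 for 5-FU in Huh7 (limma adjusted p = 9.64e-09). The DSF change in Huh1 thus rested in size on replicate 1 of the control group, and leaving out 1 array at a time it ranged from 2.13 to 3.30. With all other arrays kept, the 5-FU call in Huh7 was lost on leaving out any single control or 5-FU array of Huh7.

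RNF43 and ZNRF3 encode membrane ubiquitin ligases that clear Frizzled receptors and are themselves held back by R-spondins. For RNF43 the level in Huh1 was 3.07, 2.70 and 2.58 in control, 2.90, 2.66 and 2.64 after 5-FU, and 1.98, 1.98 and 2.11 after DSF. In Huh7 it was 3.28, 3.38 and 3.37 in control, 4.03, 3.76 and 3.72 after 5-FU, and 3.58, 3.36 and 3.42 after DSF. The DSF arrays of Huh1 were below every other array, and the 5-FU arrays of Huh7 above every other. RNF43 fell by 0.76 ± 0.12 with DSF in Huh1, a level 1.69-fold lower (limma adjusted p = 0.000159), and rose by 0.49 ± 0.12 with 5-FU in Huh7, 1.40-fold (limma adjusted p = 0.00322).

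The ZNRF3 level in Huh1 was 2.47, 2.56 and 2.52 in control, 2.81, 2.53 and 2.56 after 5-FU, and 2.03, 2.02 and 1.91 after DSF. In Huh7 the arrays read 2.82, 2.81 and 2.83 in control, 3.16, 2.61 and 2.78 after 5-FU, and 3.12, 3.10 and 3.14 after DSF. With DSF the arrays of Huh1 thus lay below control and those of Huh7 above it, with little spread. ZNRF3 fell by 0.53 ± 0.11 with DSF in Huh1, a level 1.45-fold lower (limma adjusted p = 0.00127), and its second probe fell by 0.50 ± 0.17 (limma adjusted p = 0.0261). The rise in Huh7 was small, 0.30 ± 0.11 or 1.23-fold (limma adjusted p = 0.039). It was not called with the second probe (0.33 ± 0.17, limma adjusted p = 0.126), nor when any single control or DSF array of Huh7 was left out.

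LGR5 encodes an R-spondin receptor and marks Wnt-dependent stem cells. In Huh7 its level was -4.86, -4.73 and -4.75 in control, -3.25, -3.50 and -3.09 after 5-FU, and -3.22, -3.30 and -3.16 after DSF. None of the 9 Huh1 arrays had it well above background, so no change was read there. Both drugs raised it in Huh7, DSF by 1.55 ± 0.17, 2.94-fold (limma adjusted p = 6.3e-06), and 5-FU by 1.5 ± 0.17, 2.83-fold (limma adjusted p = 3.67e-06). The difference between the drugs was 0.05, with a 95% interval from -0.32 to 0.42. With normexp correction the DSF change was 0.72, still called.

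TCF7 and LEF1 encode DNA-binding partners of β-catenin and are targets of the pathway as well. The TCF7 level in Huh1 was 0.15, 0.33 and 0.34 in control, 0.30, 0.11 and 0.10 after 5-FU, and -0.56, -0.62 and -0.50 after DSF. In Huh7 its arrays read -1.96, -1.91 and -1.94 in control, -1.25, -1.32 and -1.29 after 5-FU, and -1.94, -2.25 and -2.19 after DSF. Every Huh1 array was above every Huh7 array, and in each line 1 of the 2 drugs set all arrays apart from control. TCF7 fell by 0.83 ± 0.08 with DSF in Huh1, a level 1.78-fold lower (limma adjusted p = 2.62e-06), and rose by 0.65 ± 0.08 with 5-FU in Huh7, 1.57-fold (limma adjusted p = 1.32e-05). Its second probe gave -1.01 ± 0.13 and 0.80 ± 0.13 for the same comparisons. The DSF change in Huh7 was -0.19 ± 0.08 (limma adjusted p = 0.0747).

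LEF1 separated the lines. In Huh7 its level was 1.03, 1.06 and 1.09 in control, 0.48, 0.57 and 0.82 after 5-FU, and 1.37, 1.13 and 1.14 after DSF, while none of the Huh1 arrays had it well above background. 5-FU lowered it in Huh7, a change of -0.44 ± 0.12 (limma adjusted p = 0.00593), a direction that turned to 0.54 under spike-in scaling. The DSF arrays were all above control by a small margin, 0.15 ± 0.12, which was not called (limma adjusted p = 0.312).

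SP5 encodes a zinc finger factor of the Sp family that is induced by Wnt signals. In Huh1 its level was 1.66, 1.90 and 1.83 in control, 1.78, 1.64 and 1.62 after 5-FU, and 1.22, 1.16 and 1.23 after DSF. In Huh7 it was 0.55, 0.56 and 0.50 in control, 0.65, 0.64 and 0.71 after 5-FU, and 1.31, 0.97 and 0.99 after DSF. DSF thus lowered the line that was high and raised the line that was low, and the DSF arrays of the lines overlapped. The change in Huh1 was -0.59 ± 0.09 (limma adjusted p = 8.5e-05) and that in Huh7 was 0.55 ± 0.09 (limma adjusted p = 0.000152), which are a level 1.5-fold lower and one 1.47-fold higher. 5-FU changed it by -0.12 ± 0.09 and 0.13 ± 0.09, neither called.

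CCND1, which encodes cyclin D1, a driver of the G1 phase of the cell cycle, was called in Huh7 with 5-FU alone. In Huh1 its level was 1.24, 1.53 and 1.5 in control, 1.24, 1.35 and 1.34 after 5-FU, and 1.45, 1.41 and 1.38 after DSF. In Huh7 it was 1.53, 1.54 and 1.56 in control, 1.83, 1.73 and 1.73 after 5-FU, and 1.61, 1.55 and 1.56 after DSF. Only the 5-FU arrays of Huh7 stood clear of their control, by 0.22 ± 0.07 or 1.16-fold (limma adjusted p = 0.0165), and without replicate 1 of the 5-FU group this was 0.18 and not called (limma adjusted p = 0.0592). The DSF changes were -0.01 with a 95% interval from -0.16 to 0.14 in Huh1, and 0.03 with one from -0.12 to 0.18 in Huh7.

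The bases before the start sites of SP5 and DKK1, which moved in opposite directions with DSF in Huh1, are shown because they held letters of the kind that TCF/LEF factors bind. RefSeq start sites with sequence were at hand for 5 members, SP5, DKK1, LEF1, TCF7 and RNF43, the last 2 with 2 start sites each. The letters CTTTGAT and CTTTGAA were searched on both strands in windows of 300 bases. SP5 held 3 matches, at -148, -109 and -84 from the start site, DKK1 held 1, at -95, and the other windows none. Of 35116 such windows 6.86% held at least 1 match and 0.0256% held 3 or more, 9 windows in all. Capitals mark the matches in the 250 bases before each start site, read 5′ to 3′ on the plus strand of GRCh38.p14 (RefSeq), at chr2:170715087-170715336 for SP5 and chr10:52314031-52314280 for DKK1. A match is a description of the letters and not a binding site.
SP5: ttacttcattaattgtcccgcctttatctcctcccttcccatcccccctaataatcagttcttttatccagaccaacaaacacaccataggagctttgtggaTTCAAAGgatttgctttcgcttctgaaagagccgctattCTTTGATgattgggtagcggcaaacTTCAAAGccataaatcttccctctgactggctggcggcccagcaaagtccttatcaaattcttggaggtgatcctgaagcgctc
DKK1: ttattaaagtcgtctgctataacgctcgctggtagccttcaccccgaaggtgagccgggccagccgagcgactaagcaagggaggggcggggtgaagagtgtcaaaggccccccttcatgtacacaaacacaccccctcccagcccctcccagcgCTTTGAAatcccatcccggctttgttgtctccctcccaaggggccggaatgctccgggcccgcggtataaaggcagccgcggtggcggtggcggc

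DSF and 5-FU were then compared directly in each line, against the same arrays as above. In Huh1, 7 of 8 measured members differed: AXIN2 (0.60 ± 0.13), NKD1 and DKK1 (1.61 ± 0.54) were higher with DSF, and TCF7 (-0.73 ± 0.08), RNF43 (-0.71 ± 0.12), ZNRF3 (-0.65 ± 0.11) and SP5 (-0.47 ± 0.09) lower. In Huh7, 8 of 10 differed: AXIN2 (0.65 ± 0.13), NKD1, LEF1 (0.59 ± 0.12), ZNRF3 (0.27 ± 0.11) and SP5 (0.42 ± 0.09) were higher with DSF, and TCF7 (-0.84 ± 0.08), RNF43 (-0.38 ± 0.12) and CCND1 (-0.19 ± 0.07) lower. AXIN2 and NKD1 were thus higher, and TCF7 and RNF43 lower, with DSF than with 5-FU in both lines. Here too NKD1 passed the filter through its DSF arrays alone, so that its calls are no support. Over all measured probes 51% differed in Huh1 (28.8% higher and 22.2% lower with DSF) and 63% in Huh7 (37% higher and 26% lower). The DKK1 difference was 0.98 and not called without replicate 1 of the Huh1 5-FU group (limma adjusted p = 0.124), and was lost without any single DSF array of Huh1. The ZNRF3 difference in Huh7 was lost without any of 15 of the 18 arrays, its arrays overlapped, and the second ZNRF3 probe gave 0.01 ± 0.17 (limma adjusted p = 0.968). In Huh7 the calls of RNF43 and CCND1 were lost without 5-FU replicate 1 (-0.29 and -0.16) and without DSF replicate 2 (-0.34 and -0.18), and that of CCND1 also without DSF replicate 3 (-0.19). Without the 2 DSF arrays of Huh7 that lay on another slide than their controls, the calls of RNF43, ZNRF3 and CCND1 were lost. The DSF group of Huh7 was then 1 array, assumed to vary like the other groups. Of the called differences, the sign turned under spike-in scaling for AXIN2 in both lines and for LEF1, ZNRF3 and SP5 in Huh7.

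By limma's test the lines differed in their response to DSF for 7 of 8 members that could be measured in both. Taken as Huh7 minus Huh1, the difference between the changes was 1.14 ± 0.12 for SP5 (limma adjusted p = 9.18e-06), 0.86 ± 0.17 for RNF43 (limma adjusted p = 0.00125), 0.83 ± 0.16 for ZNRF3 (limma adjusted p = 0.000824) and 0.64 ± 0.12 for TCF7 (limma adjusted p = 0.000755). It was -2.31 ± 0.77 for DKK1 (limma adjusted p = 0.0279). This fell to -1.53 without replicate 1 of the Huh1 control group, still called, and the call was lost without Huh7 control replicate 1 (-2.29) or without Huh7 DSF replicate 2 or 3 (-2.30 for each). NKD1 was the seventh, but its changes were known only as lower bounds in both lines, which leave the direction of the difference unsettled. SP5, RNF43, ZNRF3 and TCF7 all fell in Huh1, and of these SP5 and ZNRF3 rose in Huh7. AXIN2 stood at the threshold, at 0.49 ± 0.18 (limma adjusted p = 0.0484), and lost its call without any of 13 of the 18 arrays. CCND1 gave 0.04, with a 95% interval from -0.17 to 0.26. Over all measured probes 42.8% differed between the lines (23.7% higher and 19.1% lower in Huh7). For 5-FU, TCF7 (0.75 ± 0.12), RNF43 (0.54 ± 0.17) and CCND1 (0.34 ± 0.10) changed more in Huh7, 3 of 7 members measured (RNF43 losing its call without any of 5 of the 18 arrays), beside 38.4% of probes (19.5% higher and 18.9% lower).

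**Figure D2:**
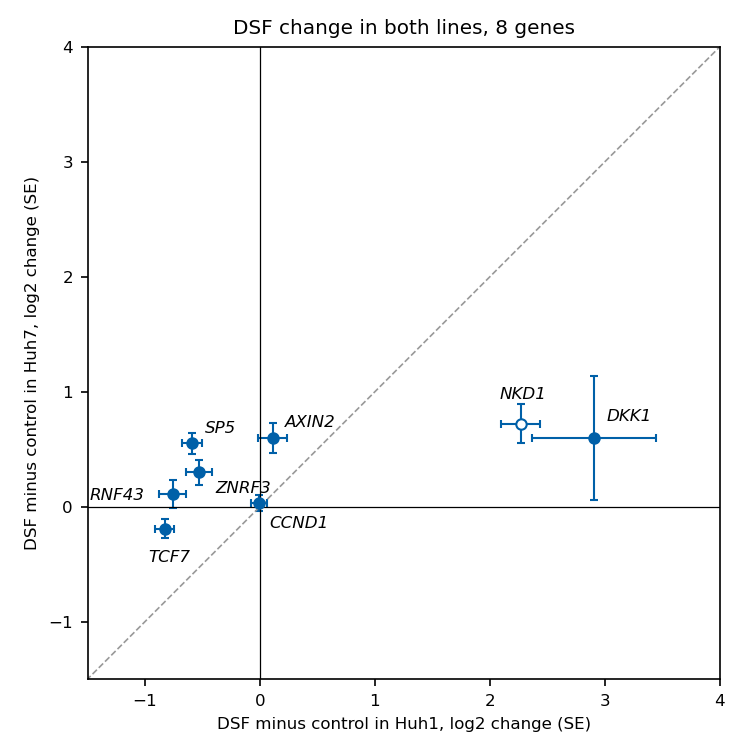
Log2 change with DSF against control in Huh1 (x axis) and Huh7 (y axis) for the 8 genes measured in both lines, with SE from limma. The dashed line marks equal change, and the open symbol is NKD1, whose controls were below background, so that its place sets no fold and no side of that line. SP5 and ZNRF3 lie left of 0 and above 0, DKK1 right of the dashed line.

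The arrays lay on 3 slides, and the DSF groups were split over them: array 3 of Huh1 DSF shared a slide with the Huh7 arrays, and arrays 2 and 3 of Huh7 DSF lay on a slide of their own. With slide as a fixed term, which compares arrays within a slide, all 6 DSF calls in Huh1 stood, NKD1 among them, with DKK1 at 2.89, TCF7 -0.86, RNF43 -0.80, ZNRF3 -0.49 and SP5 -0.60. In Huh7 array 1 of the DSF group then stands alone against its controls, and its spread is taken from the other groups. On that footing the DSF change was 0.76 for AXIN2, 1.56 for LGR5 and 0.77 for SP5, these and NKD1 being called, and 0.30 for ZNRF3, not called (limma adjusted p = 0.203). Each 5-FU group shared a slide with its control.

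The untreated lines differed for 7 of 9 measured members. In Huh7 control cells LEF1 was at least 191-fold and LGR5 at least 3.33-fold higher than in Huh1 control cells, where neither was well above background. Both passed the filter through the Huh7 groups alone, so that their calls here followed largely from it. RNF43 was higher by 0.56 ± 0.12 (limma adjusted p = 0.000793), ZNRF3 by 0.31 ± 0.11 (limma adjusted p = 0.023, lost without Huh1 control replicate 1 or Huh7 control replicate 1 or 3) and AXIN2 by 0.45 ± 0.13 (limma adjusted p = 0.00665), while the second AXIN2 probe gave -0.12 ± 0.17. TCF7 was 4.63-fold lower in Huh7, at -2.21 ± 0.08, and SP5 2.40-fold lower, at -1.26 ± 0.09. The TCF/LEF factors thus lay in opposite directions, LEF1 being detected in Huh7 alone and TCF7 higher in Huh1. Over all measured probes 73.7% differed between the control lines (36.5% higher and 37.3% lower in Huh7). With slide as a fixed term the calls of AXIN2, RNF43 and ZNRF3 were lost, the control groups lying on different slides.

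The order of the 6 groups differed from member to member. SP5 and TCF7 were highest in Huh1 control, where 5-FU overlapped control, whereas AXIN2, ZNRF3, LGR5 and LEF1 were highest in Huh7 with DSF. Neighbours that did not overlap were Huh7 DSF and Huh7 control for AXIN2 and LEF1, while ZNRF3 overlapped between Huh7 DSF and Huh7 5-FU and LGR5 between the same groups. DKK1 was highest in Huh1 with DSF and RNF43 in Huh7 with 5-FU, neither overlapping the next group. Among 10901 genes compared by the root mean square difference of the 6 centred group means from those of AXIN2, the nearest named here were PTGES3L-AARSD1 at 0.07, SNRPB2 at 0.09, SGSH at 0.09 and KRTAP20-1 at 0.09, on a span of 1.54 for AXIN2. CCND1 spanned less than 1 over the groups and was not compared. Of the members that were, ZNRF3 came at rank 1031 with 0.39 and RNF43 at rank 1954 with 0.50.

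Of 126 other genes of the pathway, 99 could be tested. With DSF 28 rose and 27 fell of 90 measured in Huh1, and 26 rose and 34 fell of 95 in Huh7. The share called was 61.1% in Huh1 and 63.2% in Huh7, beside 48% and 48.7% of all measured probes. Of all measured probes 22.2% were called lower in Huh1 and 20.2% in Huh7. The secreted and membrane inhibitors, proteins that act on Wnt or on its receptors, fell more than they rose. There were 4 falls and 1 rise among 6 measured in Huh1, with a median of -0.90. Huh7 had 7 falls and 0 rises among 8, with a median of -1.43. Medians over all probes were 0.01 and 0.09. The list holds genes such as WIF1, which binds Wnt directly, SOSTDC1, a Wnt and BMP antagonist, and KREMEN1, the partner of DKK1 at LRP6. FRZB, a soluble Frizzled-related inhibitor of the list, was the rise in Huh1, by 1.96 ± 0.22 (limma adjusted p = 7.5e-06). Its change in Huh7 was 0.23 ± 0.22, not called. The secreted antagonist DKK1, a member and so outside this list, also rose in Huh1. Of the cytoplasmic cascade, which holds the kinases and scaffolds around β-catenin, 10 rose and 4 fell of 21 in Huh1, and 8 rose and 5 fell of 20 in Huh7. Receptors had the lowest share called of the 7 lists, with 1 higher and 4 lower of 15 in Huh1 and 3 higher and 2 lower of 17 in Huh7.

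With 5-FU, 23 of the other pathway genes rose and 27 fell of 88 in Huh1, and 30 rose and 26 fell of 94 in Huh7. The share called was 56.8% in Huh1 and 59.6% in Huh7, near the 50.2% and 60.6% of all measured probes. The inhibitors were split, with 4 higher and 2 lower of 6 in Huh1 and 2 higher and 4 lower of 8 in Huh7. Under spike-in scaling, all other pathway genes together gave 66 higher and 3 lower of 88 in Huh1, and 77 higher and 6 lower of 94 in Huh7. Most of the 29894 tested probes were then called higher too, 22370 in Huh1 and 22918 in Huh7, with 366 and 1038 lower. These counts are thus no result about the pathway.

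**Figure D3:**
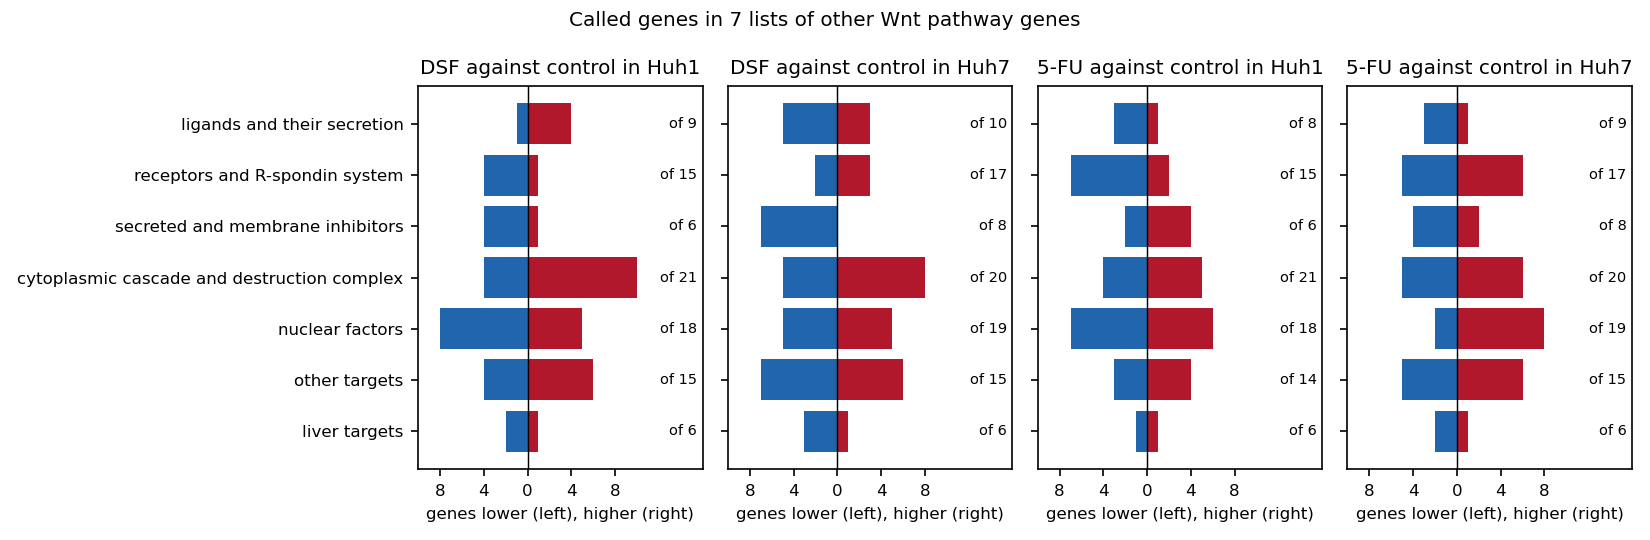
Number of genes called higher (red, right) and lower (blue, left) against control in 7 lists of other Wnt pathway genes, with the number measured at the right of each bar. The inhibitors show 7 lower of 8 with DSF in Huh7 and 4 lower of 6 in Huh1.

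Of 87 other pathway genes measured in both lines, 22 (25.3%) changed the same way with DSF in Huh1 and Huh7, no DSF array overlapping the controls, beside 23.8% of all named genes. Those ranked first by the smaller of their changes were FGF18, a growth factor, FOSL1, an AP-1 subunit, and MMP7, a matrix protease. All 3 belong to the list of other targets, which as a whole went both ways with DSF, 6 higher and 4 lower of 15 in Huh1 and 6 higher and 7 lower of 15 in Huh7. FGF18 read -7.22, -7.21 and -7.75 in Huh1 control and -4.48, -4.26 and -4.44 with DSF, and was at least 4.35-fold higher in Huh1 and at least 6.24-fold higher in Huh7. FOSL1 rose by 2.19 ± 0.21 in Huh1 and by at least 11.2-fold in Huh7, where control was below background. MMP7 rose by 1.90 ± 0.32 in Huh1, and in Huh7 it went from below background to 0.29, 0.23 and 0.32 with DSF, at least 134-fold. The ligand gene WNT10A was at least 2.02-fold higher in Huh1 and at least 2.21-fold in Huh7, being below background in both controls. WNT10A passed the filter through the DSF groups alone and FGF18 through treated groups alone. The calls of these genes thus followed largely from the filter, as for NKD1, and are no support for their rise.

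Among the 8 genes ranked first, those that fell with DSF in both lines were SOSTDC1, KREMEN1, RHBG and CTNNBIP1, of 12 shared falls in all. SOSTDC1 went from -1.47, -0.94 and -0.98 to -3.21, -3.28 and -3.18 in Huh1, and from -3.17, -3.22 and -3.22 to -4.92, -5.13 and -5.29 in Huh7, changes of -2.09 ± 0.21 and -1.90 ± 0.21. KREMEN1 changed by -1.13 ± 0.22 and -1.80 ± 0.22. RHBG, an ammonium transporter of hepatocytes around the central vein, changed by -1.69 ± 0.30 and -1.02 ± 0.30, the latter not called with slide as a fixed term (-0.96, limma adjusted p = 0.147). CTNNBIP1, which keeps β-catenin from TCF factors, changed by -0.79 ± 0.18 and -0.94 ± 0.18.

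With 5-FU 24 of 84 such genes (28.6%) changed the same way in Huh1 and Huh7, beside 35.6% of all named genes. MMP7 rose by 1.76 ± 0.32 in Huh1 and at least 36.7-fold in Huh7, and FOSL1 by 1.84 ± 0.21 in Huh1 and at least 2.01-fold in Huh7, so that both rose with either drug. WNT5A, a ligand best known for signals outside β-catenin, fell by 1.56 ± 0.22 and 2.16 ± 0.22, and KREMEN1 fell by 1.97 ± 0.22 and 1.41 ± 0.22. Under spike-in scaling WNT5A gave -0.73 and -1.18, both called, and KREMEN1 -1.14, called, and -0.43, not called (limma adjusted p = 0.0813). WIF1 rose with 5-FU, by 1.08 ± 0.10 and 1.86 ± 0.10, but fell with DSF, by 1.55 ± 0.10 in Huh1 and 0.31 ± 0.10 in Huh7, the last not called with slide as a fixed term (-0.17, limma adjusted p = 0.385). FRZB, a soluble Frizzled-related inhibitor, rose by 0.64 ± 0.22 in Huh1, where 1 of 3 control arrays was well above background, and by 3.16 ± 0.22 in Huh7. The cofactors CREBBP (0.67 ± 0.12 and 0.89 ± 0.12) and TLE1 (0.66 ± 0.10 and 1.47 ± 0.10), a co-activator and a co-repressor, rose too.

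CTNNB1, the gene of β-catenin itself, was lower with 5-FU in both lines, going from 3.62, 3.48 and 3.48 to 2.89, 2.94 and 2.98 in Huh1 and from 4.21, 4.25 and 4.23 to 3.69, 3.72 and 3.58 in Huh7. These changes, -0.59 ± 0.06 and -0.57 ± 0.06, turned to 0.24 and 0.42 under spike-in scaling. With DSF the changes were small, -0.15 ± 0.06 (limma adjusted p = 0.0451) for Huh1 and -0.14 ± 0.06 for Huh7 (limma adjusted p = 0.0517).

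**Figure D4:**
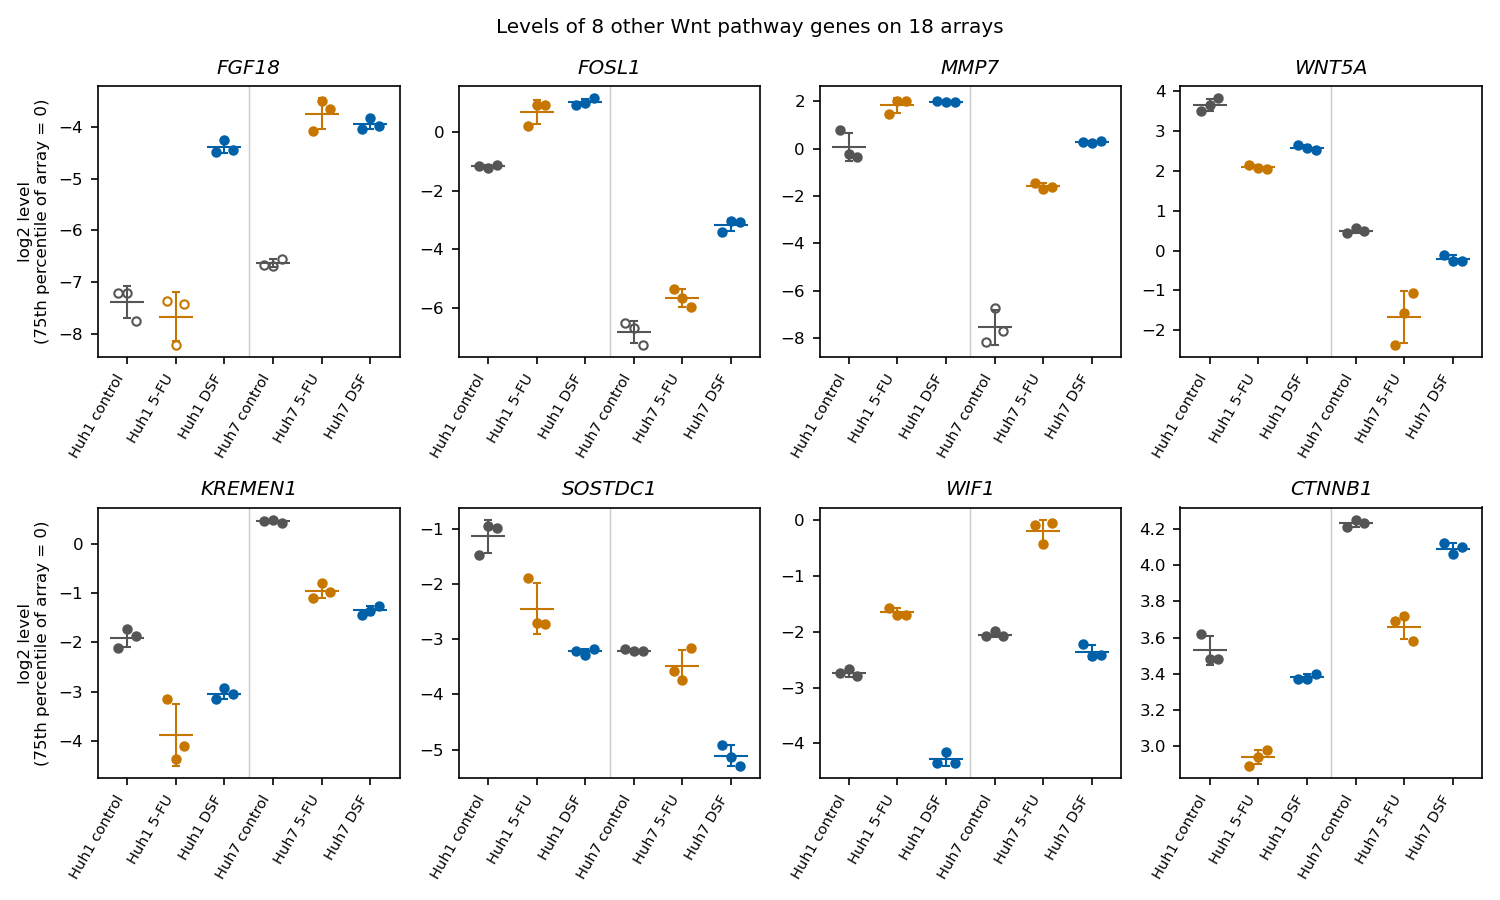
Log2 level (75th percentile of the array = 0) of 8 other pathway genes on 18 arrays, each panel with its own axis, points, bars and open symbols as for the members. FGF18, FOSL1 and MMP7 rise with DSF in both lines, KREMEN1 and SOSTDC1 fall, and WIF1 rises with 5-FU and falls with DSF.

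The untreated lines differed for 78 of 94 other pathway genes, 53 higher and 25 lower in Huh7. This is 83.0%, beside 73.7% of all measured probes (36.5% higher and 37.3% lower in Huh7). The largest differences were on and off ones. CDX2, an intestinal homeobox factor, was at least 1500-fold higher in Huh7, ROR2, a receptor for WNT5A, at least 90.5-fold, and TRABD2A, a protease that cuts Wnt, at least 49.6-fold. AMER1, a scaffold of the destruction complex, was at least 112-fold and MMP7 at least 116-fold lower in Huh7, where neither was well above background. CDX2, ROR2 and TRABD2A passed the filter through the Huh7 groups alone, and AMER1 through the Huh1 groups alone. The calls of these genes here thus followed largely from the filter. CD44, an adhesion receptor, read 0.25, 0.74 and 0.76 in Huh1 control and -6.14, -6.20 and -6.28 in Huh7 control, where 1 of 3 arrays was well above background.

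Markers of other cells moved with some groups. The summed level of the 6 fibroblast and stellate markers was 3.03 to 3.20 times the 75th percentile with 5-FU in Huh7 against 0.508 to 0.539 in control, and with DSF it was 0.469 to 0.496. That of 4 leukocyte markers was 0.473 to 0.526 with DSF in Huh7 against 0.872 to 0.912 in control, and 1.37 to 1.5 against 1.65 to 2.46 in Huh1. The 4 endothelial markers gave 0.418 to 0.431 with DSF against 0.509 to 0.626 in Huh1 control, and 0.284 to 0.317 against 0.254 to 0.277 in Huh7. With 5-FU they gave 0.363 to 0.597 in Huh1 and 0.424 to 0.493 in Huh7. The leukocyte markers gave 1.09 to 1.84 with 5-FU in Huh1 and 0.562 to 0.788 in Huh7. The 10 hepatocyte and liver cancer markers summed to 707 to 764 with DSF against 920 to 987 in Huh1, and to 1040 to 1160 against 1170 to 1200 in Huh7. With 5-FU they summed to 770 to 911 in Huh1 and to 1250 to 1420 in Huh7. The part of these shifts in the members' changes was not tested.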

How the data were processed

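RNA of sorted EpCAM+ cells was hybridised to 18 one-colour Agilent arrays, 3 for each of 6 groups taken from the sample labels. The deposited scanner files hold spot intensity values made by the authors with Feature Extraction 10.7.1.1, already corrected for background. The deposited table of the authors holds the signal divided by the 75th percentile of each array, and 100% of its probes lay within 0.05 log2 of the values used here. Flagged spots (316 to 447 an array) and control spots were left out, spots of a probe were averaged on the log2 scale, and the log2 of the 75th percentile was subtracted from each array (10.1 to 10.84). Of 42405 probes on the array, 78 were left out, and 29894 were tested, each of them marked well above background by every array of some group.

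Group means were compared with limma 3.58.1 in R 4.3.3, in one fit over all 6 groups with Benjamini-Hochberg adjustment over all tested probes. A gene was read through its brightest tested probe. The members, the lists of other pathway genes and the markers were chosen with earlier results of these data known. Other genes named are those with the largest changes by a fixed rule for each comparison, plus CTNNB1. Probes were named by RefSeq accession or symbol through the RefSeq gene table, 25771 in all. The fit was tested on simulated data. Alternatives were other scalings, normexp background correction (offset 50, on median spot and background signals, since the files used here held no mean signal), the deposited table, other filters, the mean of a gene's probes, each line fitted alone, slide as a fixed or random term, the replicate number as a block and each array left out. The last 2 alternatives, without the 2 arrays of the third slide and without replicate 1 of the Huh1 control and 5-FU groups, were added after the data were seen. Replicate numbers did not pair the samples. The number of arrays limits the precision. Tables were handled with Python 3.11.15 and pandas 2.3.3.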

Additional observations from a re-analysis of the deposited data

Results flagged for a closer look

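For 7 members, NKD1 with a limit given below, the change with DSF differed between the lines by limma's test of the difference itself, given as Huh7 minus Huh1: AXIN2 0.49, NKD1 -1.54, TCF7 0.64, DKK1 -2.31, RNF43 0.86, ZNRF3 0.83 and SP5 1.14. For 3 members the change with 5-FU differed in the same way: TCF7 0.75, RNF43 0.54 and CCND1 0.34. Of these, TCF7 and RNF43 differed between the lines with either drug. NKD1 was below background in both controls, so that both of its changes are only lower bounds and neither the size nor the direction of its difference is settled.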

How the results depend on the processing

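Counts of members called mostly kept within 1.5 times their value. Under spike-in scaling the count went from 5 to 1 for DSF in Huh7, from 1 to 6 for 5-FU in Huh1, from 7 to 3 for the line difference with DSF and from 3 to 1 for that with 5-FU. For DSF in Huh7 it was 3 of 10 with normexp correction and 3 of 7 with the strict filter on dim probes, which left NKD1, LGR5 and LEF1 untested. For 5-FU in Huh1 it was 2 with the strict filter, 2 with the replicate number as a block, and 3 without replicate 1 of the Huh1 control and 5-FU groups. With slide as a fixed term the count went from 8 to 5 for DSF against 5-FU in Huh7 and from 7 to 4 for the control lines. On leaving out each array the count ranged from 4 to 5 for DSF in Huh7, from 1 to 2 for 5-FU in Huh1, from 5 to 8 for DSF against 5-FU in Huh7 and from 2 to 4 for the 5-FU line difference, and was 6 throughout for DSF in Huh1.

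The sign turned in 16 values that were called under one of the settings compared, and in 30 more that were called under neither. With normexp correction NKD1 gave -0.06 for DSF in Huh7. Under spike-in scaling 5-FU in Huh1 gave AXIN2 0.34, TCF7 0.72, RNF43 0.78, SP5 0.71 and CCND1 0.71, and 5-FU in Huh7 gave AXIN2 0.94 and LEF1 0.54. DSF against 5-FU then gave AXIN2 -0.10 and CCND1 -0.59 in Huh1, and AXIN2 -0.52, LGR5 -1.11, LEF1 -0.57, ZNRF3 -0.89 and SP5 -0.74 in Huh7. Without replicate 1 of the Huh1 control and 5-FU groups, DKK1 was -0.29 in Huh7 control against Huh1 control. The cause was not tested. Of 2386 alternative values 2225 kept their side of the threshold without reversing a call, those 30 included.

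Same-numbered arrays of a line deviated with correlations of -0.093 to 0.024, so the numbers do not pair the samples. With the replicate number as a block 6 members were called for DSF in Huh1, 4 for DSF in Huh7, 2 for 5-FU in Huh1 and 6 for 5-FU in Huh7. The block was not run for the control lines, since each block lies within a line. NKD1, LGR5 and LEF1 were limited by signal over background.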
